A study of Homo sapiens with 27 samples.

Results

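Torin-treated TFE3 KO cells were compared with Torin-treated TFEB KO cells, using 6 of the 27 libraries in the series: TFE3 KO Torin (n = 3) and TFEB KO Torin (n = 3), chosen by genotype and treatment. The cells are 501mel, a human melanoma line with high MITF, grown with serum (in DMEM per the labels, whereas the study's methods give RPMI for this line). The 6 libraries were given 250 nM Torin1 for 12 h, and the RNA was read at its 3′ ends with QuantSeq Forward libraries. Each genotype is represented by 1 clone made with Cas9, so that clone and genotype cannot be told apart anywhere below. Other groups were used as references: TFE3 KO and TFEB KO cells kept for 12 h without drug (CTRL, n = 3 each), cells lacking both genes (DKO) in Torin (n = 3), and unedited WT cells in Torin. The columns labelled WT Torin replicate 1 and WT HBSS replicate 3 held the same values, so neither was used and WT Torin has n = 2. The labels do not say whether the libraries of a group came from separate cultures, and p-values measure only the spread between them.

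MITF, TFEB and TFE3 are related basic helix-loop-helix leucine zipper factors that bind E-box sequences such as CACGTG. In fed cells the kinase complex mTORC1 phosphorylates TFEB and TFE3 and holds them in the cytoplasm, and when mTORC1 is inhibited they enter the nucleus and switch on genes of lysosomes, autophagy and nutrient sensing. Torin1 inhibits the mTOR kinase itself. MITF is best known as the regulator of pigment cell identity.

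The guides that separate the genotypes are shown because the clones differ by which of them was used. Each is written 5′ to 3′ in lower case, with the PAM that follows it in the genome in capitals.
TFE3 guide: ggtactgtttcacctgctgcCGG
TFEB guide: agtacctgtccgagacctatGGG
In hg38 the TFE3 guide lies at chrX:49038370-49038389 on the + strand, in the coding part of exon 4 of TFE3. The TFEB guide lies at chr6:41690831-41690850 on the - strand, in the coding part of exon 3 of TFEB. A 3′ end read falls outside either cut, so the read counts do not report the edits. TFE3 still gave reads in its own knockout, with normalised read counts of 14, 9.13 and 9.15 in the TFE3 KO Torin libraries and 18.3, 19.0 and 16.5 in the TFEB KO Torin libraries. The groups did not overlap, and the log2 fold change of -0.71 ± 0.17 (SE) had an adjusted p of 0.00112 (limma). TFEB was near the detection floor, with 1.91, 1.34 and 2.29 against 3.45, 0.628 and 0.611, and the libraries overlapped (log2 fold change 0.31 ± 0.32, limma adjusted p = 0.481). MITF was higher in TFE3 KO, at 843, 853 and 875 against 748, 705 and 753 (log2 fold change 0.22 ± 0.06, limma adjusted p = 0.00367). DKO Torin, which also lacks TFE3, had less MITF than either, at 589, 601 and 551. DKO lacks TFEB as well and is a separate clone, so these values cannot tell clone from genotype.

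The 6 libraries held 4468579 to 5835942 reads in the genes of the table and 13108 to 13414 genes with a read. The unit below is the normalised read count (a scaled CPM), and the 3 reads that an empty count still allows correspond to 0.471 to 0.668. These floors cover counting error only. Melanocyte and melanoma markers were abundant in all 6 libraries: all 9 were in the table, and their summed value was 8879 to 9341 in TFE3 KO and 7344 to 7446 in TFEB KO. Of these 9 genes 8 were higher in TFE3 KO at an adjusted p under 0.05 and S100B, a glial and melanocyte calcium-binding protein, passed the fold of 2 as well. Of markers of other cell types, 1 of 7 keratinocyte, 3 of 7 fibroblast, 1 of 8 immune and 0 of 5 endothelial genes were in the table.

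Far more genes were called low than high in TFE3 KO when set against TFEB KO. Of 13040 genes tested outside chromosome Y, 638 (4.89%) were called at an adjusted p under 0.05 and a fold change of at least 2 (limma on log2(value + 1)). In TFE3 KO Torin 82 of them (0.629%) stood higher than in TFEB KO Torin and 556 (4.26%) stood lower. Without the fold limit the directions were near even, with 2230 genes (17.1%) higher and 2357 (18.1%) lower, so the imbalance lay in the size of the differences and not in their number. All 3 libraries of one genotype lay clear of the other 3 in 80 of the 82 higher genes and 545 of the 556 lower genes, against 45.1% of all genes. Called genes were weakly expressed, with a median value of 8.13 for the higher and 4.95 for the lower genes against 19.9 for all genes. The edgeR quasi-likelihood test on recovered reads raised these to 151 and 726, and with a pseudocount of 0.1 they were 149 and 712.

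**Figure D1:**
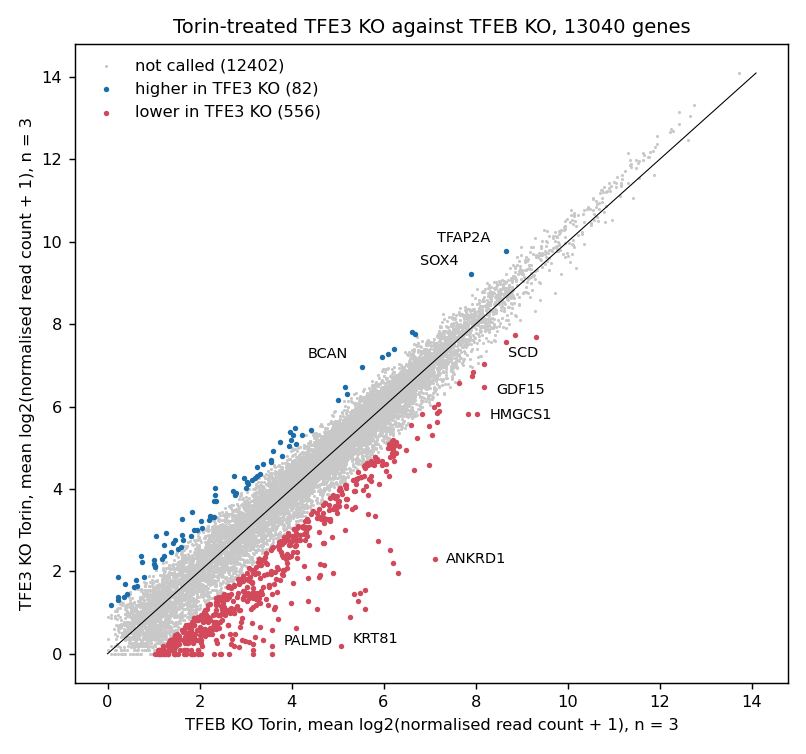
Each point is 1 of 13040 genes, placed by its mean log2(normalised read count + 1) over the 3 TFEB KO Torin libraries (horizontal axis) and the 3 TFE3 KO Torin libraries (vertical axis), with the line of equal values in black. The 82 genes called higher in TFE3 KO (blue) stay close to the grey cloud, while the 556 called lower (red) reach much farther from the line, with KRT81 and ANKRD1 at the far end.

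The higher genes were led by modest differences. GPC2, a glypican proteoglycan of the cell surface, had values of 6.78, 8.24 and 11.2 in TFE3 KO and 1.21, 3.14 and 2.24 in TFEB KO (log2 fold change 1.63 ± 0.28, limma adjusted p = 7.11e-06). CADM4, an immunoglobulin-type adhesion molecule, gave 11.0, 7.79 and 10.8 against 3.62, 1.73 and 2.65 (1.59 ± 0.28 on the log2 scale). BCAN (chr1:156641390-156659532), which encodes the matrix proteoglycan brevican, stood on far more reads, at 117, 121 and 134 against 48.8, 45.1 and 41.7. Its log2 fold change was 1.44 ± 0.10 with a limma adjusted p of 1.02e-15, and all TFE3 KO libraries lay above all TFEB KO libraries. NBEA, a regulator of membrane traffic, followed the same order with 38.6, 40.1 and 42.6 against 13.6, 14.8 and 15.9 (1.40 ± 0.18). LGI4, a secreted protein needed for peripheral myelination, gave 10.4, 12.9 and 13.3 against 3.28, 4.08 and 5.09. The rest of the leading 12 were the pseudogene FAR2P1 (log2 fold change 1.70), the non-coding transcripts TPT1-AS1 (1.58), LINC01198 (1.51) and SNAR-H (1.37), TMEM198B (1.41), the endoplasmic reticulum prolyl isomerase FKBP7 (1.39) and the transcription factor SOX4 (1.33). TPT1-AS1 is antisense to another gene, and SNAR-H belongs to a family of near-identical copies, so their reads may be shared.

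The higher genes were unevenly spread over the chromosomes. Chromosome 6 held 21 of the 82 and chromosome 13 held 8, which is 3.18% and 3.38% of the genes tested there against 0.629% overall. On chromosome 6 the excess lay in the first 60 Mb, where 18 of 370 tested genes were called higher, among them SOX4, TFAP2A, ID4, TUBB2B and GABBR1. Among the 245 genes there with a mean of at least 10, 196 had a positive difference, with a median log2 fold change of 0.46, and the median was 0.02 for the 181 such genes past 70 Mb. TFEB itself lies in the first stretch, at chr6:41683978-41736259. Set against WT Torin, the 3 TFEB KO Torin libraries had a median log2 difference of -0.36, -0.34 and -0.38 over the 245 genes, and the 3 TFE3 KO Torin libraries 0.06, 0.05 and 0.04. The TFEB KO libraries without drug gave -0.31, -0.34 and -0.35 against WT CTRL, so the shift was present without Torin too. In DKO Torin the median was -0.23, -0.26 and -0.23 in the first stretch and -0.22, -0.26 and -0.29 past 70 Mb. Over chromosome 13 the TFE3 KO Torin libraries lay 0.19, 0.16 and 0.13 above WT Torin and the TFEB KO Torin libraries at -0.12, -0.14 and -0.06. Chromosome 8 went the other way, with 36 of 444 genes (8.11%) called lower and none higher, and the TFE3 KO Torin libraries at -0.26, -0.25 and -0.27 where those of TFEB KO were at 0.03, 0.05 and 0.05. All other chromosomes together had medians within 0.03 of WT Torin in these 6 libraries and held 50 of the higher genes and 479 of the lower. Single chromosomes among them varied more. The median log2 fold change between the knockouts over all genes tested was 0.15 on chromosome 19, -0.13 on chromosome 5 and -0.11 on chromosome 18. What part these stretches have in the call of any gene lying on them was not tested. The genes with values given here that lie on these stretches include SOX4, TFAP2A, SPATS1, PSMB8, HLA-B, RPS18 and RPS10 in the first 60 Mb of chromosome 6. They also include NBEA, TPT1-AS1, LINC01198 and DCT on chromosome 13, and SFRP1, HEY1, NEFL, CCNE2, GINS4, CTSB, SQLE, FDFT1 and ATP6V1C1 on chromosome 8. This is not a full list. These stretches were noticed in the data, and their edges were set after the values were seen.

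**Figure D2:**
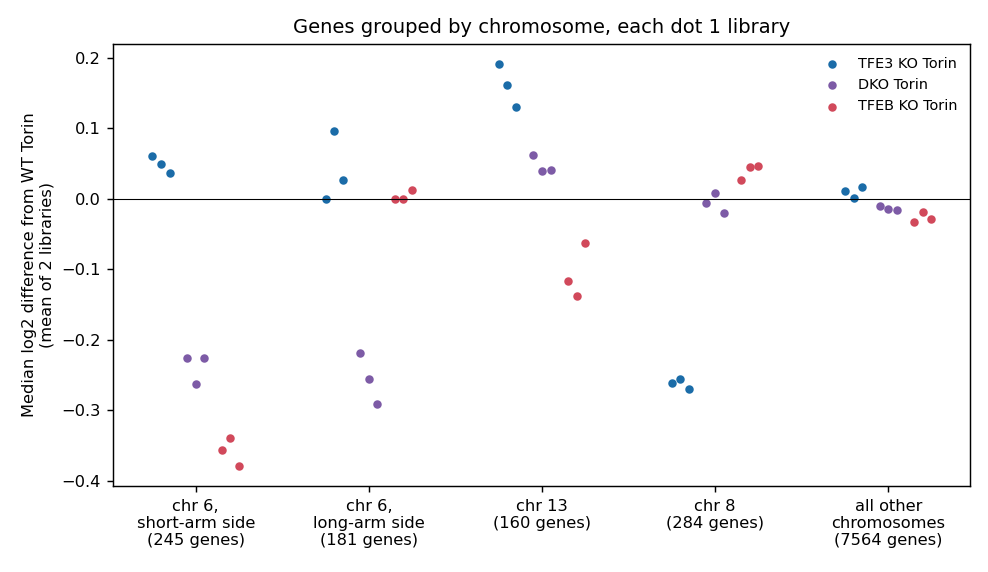
Median log2 difference from WT Torin (mean of 2 libraries) over the genes of a chromosome or part of one, with a mean value of at least 10, for each Torin library of TFE3 KO (blue), DKO (purple) and TFEB KO (red). The 3 TFEB KO dots are lowest over the short-arm side of chromosome 6 (-0.38 to -0.34) and the 3 TFE3 KO dots are lowest over chromosome 8, and dots of 1 clone lie close together.

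The lower genes included some that were all but absent in the TFE3 KO clone. KRT81, a hair keratin, had 2 reads in the 3 TFE3 KO libraries together, with values of 0, 0.445 and 0 against 25.5, 45.1 and 30.9 in TFEB KO, a ratio of 241 (95% counting interval 66.4 to 1994). WT Torin held only 2.58 and 0.474, so that KRT81 lay 3.88 above WT in TFEB KO and 1.02 below it in TFE3 KO on the log2 scale, and most of the difference is on the TFEB KO side. It is near-identical to other hair keratin genes, including KRT86, which was also lower, so the counting may divide their reads. ANKRD1, a cofactor of muscle and of YAP-driven transcription, was 3.39, 4.23 and 4.16 against 111, 161 and 146, a 35.5-fold difference of means (log2 fold change -4.82 ± 0.21, limma adjusted p = 6.23e-24). THSD7A, a thrombospondin-domain membrane protein, was 0.848, 1.11 and 0.624 against 39.0, 35.5 and 38.1, 43.5-fold lower. PALMD was listed at 0 in all 3 TFE3 KO libraries and at 9.48, 11.5 and 12.2 in TFEB KO, which makes it at least 17.2-fold lower against the floor of 3 reads per library. PALMD was 1 of 29 called genes with no read in TFE3 KO Torin, and no called gene was without reads in TFEB KO Torin. SFRP1, a secreted inhibitor of Wnt signalling, gave 3.60, 6.46 and 4.37 against 65.5, 79.0 and 63.5, and PRKCB, a protein kinase C isoform, 2.33, 1.34 and 1.66 against 38.6, 46.2 and 35.2. DHRS2 (log2 fold change -4.01), the Y RNA RNY1 (-4.51), the saliva peptide gene HTN1 (-4.37), SPATS1 (-4.17), the non-coding OVAAL (-4.02) and the cancer-testis antigen SSX1 (-4.05) completed the lowest 12, each with all TFE3 KO libraries below all TFEB KO libraries.

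Sterol and fatty acid synthesis was the metabolic group with the most called genes. These enzymes are switched on together by SREBP factors, which are released when membrane cholesterol falls and are themselves promoted by mTORC1. Of 43 tested members 11 were called lower and none higher, against 4.26% and 0.629% of all genes, and 27 were lower at an adjusted p under 0.05 with 2 higher. The median log2 fold change of the list was -0.46 against 0.03 for all genes. HMGCS1 (chr5:43287470-43313512), which makes the precursor of mevalonate, was 55.8, 56.8 and 53.9 in TFE3 KO and 255, 250 and 274 in TFEB KO. The difference of -2.21 ± 0.08 on the log2 scale had a limma adjusted p of 9.83e-28, the lowest among the genes named here. MSMO1, a sterol demethylase, was 6.78, 8.24 and 6.03 against 34.0, 41.5 and 29.5 (-2.16 ± 0.15). Further called members were STARD4 (-1.67), INSIG1 (-1.54), DHCR7 (-1.33), ELOVL6 (-1.28), SQLE (-1.16), the fatty acid desaturase SCD (-1.12) and SC5D (-1.04). FDFT1 (0.26) and PMVK (0.36), of the same pathway, were higher at an adjusted p under 0.05, so the pathway did not move as a whole. HMGCS1 also differed without Torin (log2 fold change -2.31). The list as a whole differed about as much without drug, with a median of -0.53. There 27 members were lower and none higher at an adjusted p under 0.05, and 6 were called lower.

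Genes of DNA replication separated the clones under Torin in a direction that was not seen without it. These are targets of the E2F factors, which are set free when cyclin-dependent kinases act on the retinoblastoma protein, and mark entry into S phase. Of 66 tested members 40 were lower in TFE3 KO Torin at an adjusted p under 0.05 and 2 higher, and 7 were called lower. Over all genes 18.1% were lower and 17.1% higher at that adjusted p, and 4.26% were called lower. The median log2 fold change was -0.38 under Torin and 0.24 without drug, where 28 members were higher and none lower. Over all 13040 genes 1869 were higher and 2025 lower without drug. The difference between the 2 states was itself negative in 42 of the 66 at an adjusted p under 0.05, against 598 of 13040 genes. The fold of 2 was passed by 13, against 0.69% of all genes in that direction and 1.38% in either. GINS1, a subunit of the replicative helicase complex, was 12.9, 10.9 and 17.5 in TFE3 KO Torin and 51.0, 52.3 and 46.8 in TFEB KO Torin (-1.81 ± 0.13, limma adjusted p = 3.12e-16). Without drug it was 66.2, 69.0 and 67.5 against 74.0, 87.0 and 78.4. The cyclin CCNE2 was 0.848, 2.0 and 1.04 against 5.69, 5.65 and 6.92 under Torin, and 20.8, 14.9 and 19.8 against 13, 13.9 and 17.2 without it. CCNE2 was therefore lower in TFE3 KO with no overlap under Torin, while its libraries overlapped without drug. E2F1 gave 3.60, 7.35 and 4.99 against 14, 20.4 and 13.8, and E2F2 4.45, 5.34 and 3.54 against 15.7, 16.6 and 10.4. CDC25A, the phosphatase that activates CDK2, gave 6.36, 12.5 and 8.32 against 26.0, 25.9 and 23, and GINS4 (-1.36) and the replication initiator MCM10 (-1.16) were the remaining called members.

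Torin lowered these genes in each clone. At an adjusted p under 0.05, 65 of 66 fell in TFE3 KO and 58 in TFEB KO, against 3387 and 2740 of 13040 genes. Median log2 changes were -1.30 and -0.76, and 47 and 20 passed the fold of 2, against 4.69% and 1.66% of all genes. Genes of G2 and mitosis behaved alike with smaller sizes. At an adjusted p under 0.05, 31 of 73 were lower in TFE3 KO Torin and 1 was higher, against 18.1% and 17.1% of all genes. The median was -0.25 under Torin and 0.20 without drug. A negative difference between the states was found in 31, against 598 of 13040 genes. Only BIRC5 (survivin) was called in that list, at 110, 97.1 and 112 against 227, 257 and 247 (-1.19 ± 0.08). In bulk RNA a smaller share of cycling cells and less RNA per cycling cell cannot be told apart.

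**Figure D3:**
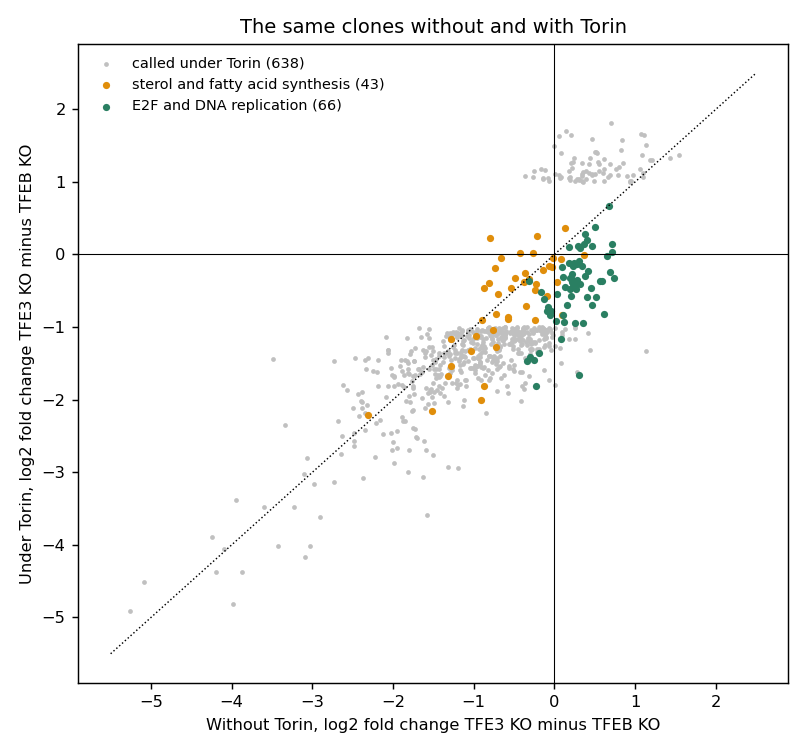
Log2 fold change of TFE3 KO against TFEB KO without drug (horizontal axis, 6 libraries) and under Torin (vertical axis, 6 other libraries) for the 638 genes called under Torin (grey), the 43 sterol and fatty acid genes (orange) and the 66 replication genes (green), with equal values along the dotted line. Most sterol genes lie at negative values on each axis, with FDFT1 and PMVK above 0 under Torin, whereas most replication genes lie right of 0 without drug and below 0 under Torin.

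The 6 libraries without drug share none with the Torin comparison and so measure the same pair of clones a second time. There, 518 genes (3.97%) passed the same limits, of which TFE3 KO had more of 56 (0.429%) and less of 462 (3.54%). Of the 556 genes lower under Torin, 538 had the same sign without drug and 268 were also called, which is 48.2% of the Torin list and 58.0% of the list without drug. Of the 82 higher genes 73 had the same sign and 11 were called, 13.4% and 19.6% of the respective lists. The share of all tested genes with the same sign in both states was not counted. KRT81, THSD7A, SSX1 and PRKCB differed without drug by -5.27, -4.20, -4.09 and -4.24 on the log2 scale, near their values under Torin. Among the higher genes, NBEA (0.09), FAR2P1 (0.15) and GPC2 (0.06) showed little difference without drug, and the change in the difference was 1.31 ± 0.25 for NBEA (limma adjusted p = 0.000464).

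Lysosome and autophagy genes, the best known targets of TFEB and TFE3, gave few calls between the knockouts. Over all genes 4.26% were called lower and 0.629% higher, and 18.1% and 17.1% were lower and higher at an adjusted p under 0.05. Of 56 tested lysosomal hydrolases and membrane proteins 17 were lower and 7 higher at an adjusted p under 0.05, and only CTSS, a cathepsin, was called (log2 fold change -1.10). The cathepsins CTSL (-0.99) and CTSB (-0.98) and the cholesterol exporter NPC1 (-0.92) came next, and TPCN2, a lysosomal ion channel, was higher (0.91). Of 17 subunits of the vacuolar ATPase, the proton pump that acidifies lysosomes, 7 were lower and none higher. The subunit ATP6V1C1 was called, with 22.9, 24.5 and 26.4 in TFE3 KO and 57.8, 57.3 and 59.7 in TFEB KO, non-overlapping, at -1.21 ± 0.10 (limma adjusted p = 3.14e-13). ATP6V1C1 lies on chromosome 8, whose genes had a median log2 fold change of -0.24. Of 43 autophagy genes none was called, 6 were lower and 6 higher, and the lower ones included the cargo receptor SQSTM1 (-0.77) and MAP1LC3B (-0.66).

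Of 28 Rag GTPase, FLCN and mTORC1 feedback genes 2 were called lower and none higher, against 4.26% and 0.629% of all genes. At an adjusted p under 0.05, 8 were lower and 6 higher, against 18.1% and 17.1%. The median log2 fold change was -0.02. RRAGD, a Rag GTPase that recruits mTORC1 to the lysosome, was 93.1, 93.7 and 97.4 in TFE3 KO and 195, 200 and 198 in TFEB KO (-1.05 ± 0.08, limma adjusted p = 7.92e-15). It lies past 70 Mb on chromosome 6, at chr6:89364616-89412273. SESN2, a leucine sensor, was 3.39, 3.79 and 6.03 against 11.7, 11.6 and 15.3 (-1.38 ± 0.18), a call that was lost when the duplicated column was kept (limma adjusted p = 0.229). RRAGC (-0.70) and the FLCN partner FNIP2 (-0.63) were lower below the fold of 2, and RRAGB (0.90) was higher. Of the 33 tested genes that the study's own text examines, AXL, SESN2, SCD and RRAGD were called, all lower. That list was taken from the study's text, which follows many of its members in other cells. The core E-box CACGTG, read on both strands, was present in the RefSeq promoter window (250 bases before to 50 after the gene start, GRCh38) of 36 of 381 lower genes with a window (9.45%), 2 of 49 higher genes (4.08%) and 1003 of 9658 tested genes (10.4%). In the lysosomal list it was in 12 of 38 windows (31.6%) and in the vacuolar ATPase list in 4 of 12 (33.3%).

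**Figure D4:**
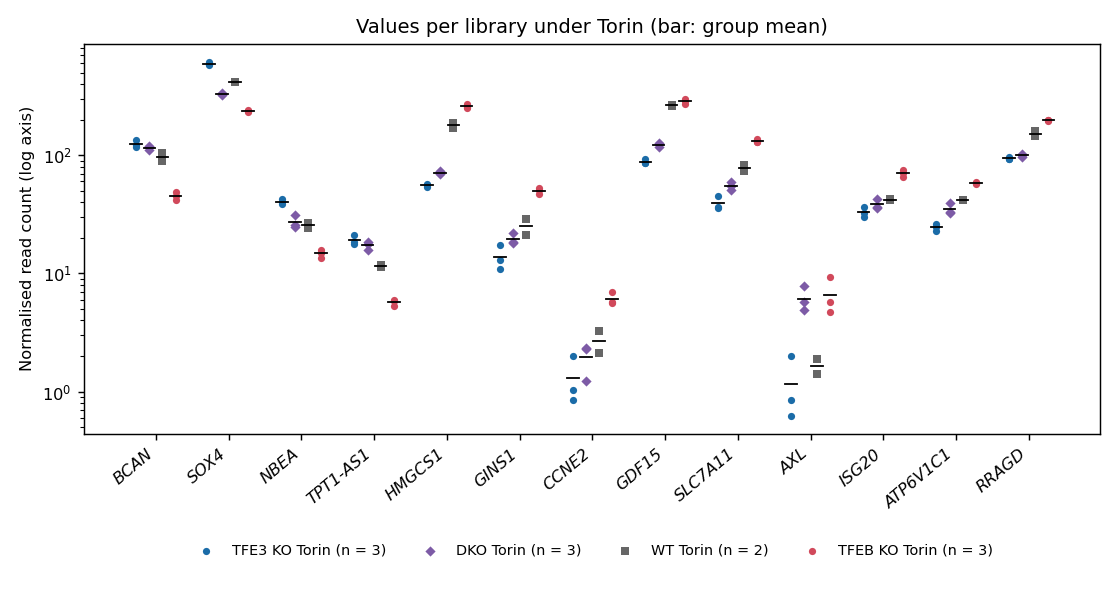
Normalised read count per library (log axis) of 13 genes under Torin in TFE3 KO (blue), DKO (purple), WT (grey) and TFEB KO (red), with group means as bars. The WT mean lies between those of the single knockouts in all 13 genes shown, and DKO lies near TFE3 KO in genes such as HMGCS1 and RRAGD and near TFEB KO in AXL.

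Lineage genes showed many small positive differences and a few strong ones in either direction. Over all genes 17.1% were higher and 18.1% lower at an adjusted p under 0.05, and 0.629% and 4.26% were called higher and lower. Among 35 melanin and melanosome genes 16 were higher in TFE3 KO at an adjusted p under 0.05 and 3 lower, all of the higher ones under 2-fold, such as MLPH (0.70), PMEL (0.38), DCT (0.27) and TYR (0.23). The exception in size was BCL2A1 (-2.69), an anti-apoptotic MITF target held in this list. Of 26 lineage transcription factors, SOX4 and TFAP2A were called higher and HEY1 and TWIST1 lower, and 12 members were higher and 9 lower at an adjusted p under 0.05. SOX10 (0.52), PAX3 (0.65), POU3F2 (0.87) and ZEB2 (0.95) were higher below the fold limit, and TFAP2C (-0.83), MSX1 (-0.45), ETV4 (-0.42), ID1 (-0.41) and ID3 (-0.35) lower. SOX4, an SoxC factor of progenitor cells, was 582, 589 and 618 in TFE3 KO against 239, 233 and 236 in TFEB KO (1.33 ± 0.07, limma adjusted p = 2.20e-20). WT Torin lay between, at 420 in each library, and Torin raised SOX4 by 1.45 in TFE3 KO and 0.36 in TFEB KO on the log2 scale. TFAP2A, a neural crest factor, was 989, 895 and 740 against 453, 336 and 428 (1.11 ± 0.11), and fell just under the fold limit (0.98) without TFEB KO Torin replicate 2. These genes lie in the first 60 Mb of chromosome 6 described above. The Torin-dependent part of the SOX4 difference was 1.09 ± 0.10 (limma adjusted p = 3.48e-10). It still sets 1 clone against 1 other, and the part of the chromosome 6 stretch in it was not tested. HEY1, a Notch target, was 12.7, 9.35 and 11.0 against 34.7, 31.1 and 40.5 (-1.60 ± 0.13), and TWIST1, a factor of mesenchymal transition, 10.2, 6.90 and 9.57 against 23.6, 23.1 and 20.4 (-1.25 ± 0.16).

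Receptors and matrix genes of the invasive melanoma state were lower in the TFE3 KO clone wherever they were called. Of 34 members of the receptor list 7 were called lower and none higher, against 4.26% and 0.629% of all genes, and 11 were lower and 5 higher at an adjusted p under 0.05. Without drug 14 members were lower, 6 of them called, and 1 was higher. The median was -0.34 there against -0.26 under Torin. AXL, a receptor tyrosine kinase of dedifferentiated melanoma, was 0.848, 2.0 and 0.624 against 5.69, 9.27 and 4.68 (-1.81 ± 0.29, limma adjusted p = 2.19e-06), and DKO Torin, at 5.69, 7.78 and 4.92, stood at the level of TFEB KO. The insulin receptor INSR gave 6.78, 5.79 and 4.99 against 22.1, 15.7 and 14.9, and the ephrin receptor EPHA4 26.5, 26.7 and 26.4 against 53.1, 55.9 and 56.2. The groups did not overlap in either gene. DDR2 (-1.63), KITLG (-1.57) and FOSL1 (-1.08) were called too. The 5 higher members, all below the fold of 2, were ERBB3 (0.91), JUN (0.61), KIT (0.54), CYR61 (0.46) and EPHB4 (0.37). Of these, ERBB3 and KIT are receptors of the differentiated state. Of 51 mesenchymal and matrix genes 8 were called lower and none higher, and 20 were lower and 8 higher at an adjusted p under 0.05. Without drug the list differed about as much, with 21 lower, 6 higher and a median of -0.31 against -0.32 under Torin. The higher members included the gelatinase MMP2 (0.90), the laminin chains LAMA1 (0.64) and LAMC1 (0.56) and vimentin, VIM (0.44). The called members were led by INHBA, the activin A subunit, at 1.06, 0 and 0.624 against 8.10, 14.4 and 11.2. SDC3 (63.6, 58.6 and 66.8 against 148, 126 and 135) was the call with the most reads there, and unlike the list as a whole it differed by -0.02 without drug (limma adjusted p = 0.907). The 3 fibroblast markers in the table summed to 0.624 to 1.70 in TFE3 KO and 3.62 to 7.22 in TFEB KO, with COL1A1 and LUM lower at an adjusted p under 0.05. COL1A2, COL3A1, DCN and PDGFRB were not among the genes of the table, and the part of such markers in the matrix result was not tested.

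Several lists of stress-responsive genes held more lower calls than the 4.26% of all genes, and others did not. The integrated stress response, in which ATF4 restores amino acid supply, gave 6 of 40 genes called lower and none higher, with 18 lower and 6 higher at an adjusted p under 0.05. Without drug this list differed about as much, with 23 lower, 7 of them called, and 3 higher. Its median was -0.33 there against -0.35 under Torin. GDF15, a secreted stress cytokine, was 85.2, 93.7 and 85.7 against 290, 301 and 274 (-1.70 ± 0.08, limma adjusted p = 1.26e-23), and SLC7A11, the cystine importer, 35.6, 44.8 and 36.8 against 129, 128 and 136 (-1.73 ± 0.11). NUPR1 (-2.35), CHAC1 (-1.85), SESN2 and CEBPB (-1.20) were the other calls, and ATF4 itself was higher (0.37). The NRF2 and iron list had 3 of 29 called lower, CHAC1, SLC7A11 and the glutathione synthesis subunit GCLM, which was 21.8, 29.6 and 30.4 against 70.7, 66.7 and 82.3. Of 29 p53 targets 4 were called lower (GDF15, BTG2, PMAIP1 and GADD45B, the last losing its call without TFE3 KO Torin replicate 3 or TFEB KO Torin replicate 2, at -0.88 and -0.93). Unfolded protein response genes had no call but 19 of 41 were lower and 1 higher at an adjusted p under 0.05, HYOU1 (-0.85) and HSPA5 (-0.50) among them. That list differed more without drug, with 34 lower, 7 of them called, and a median of -0.61 against -0.30 under Torin. Of 24 heat shock genes only CRYAB was called (-1.43), and PSAT1 (-1.32) was the only call among 22 genes of serine, one-carbon, asparagine and proline synthesis, shares near that of all genes. MAPK output genes gave 5 of 36 lower, with the basic leucine zipper gene MAFF at 32.2, 29.2 and 27.7 against 81.4, 103 and 82.5 and the phosphatase DUSP1 at 1.48, 4.23 and 1.87 against 8.45, 8.79 and 6.31.

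Called glycolysis and hypoxia genes were lower in TFE3 KO, and many respiratory chain and ribosomal genes were slightly higher. Among all genes tested 4.26% were called lower and 0.629% higher, and 18.1% were lower and 17.1% higher at an adjusted p under 0.05. Of 45 glycolysis and hypoxia genes 5 were called lower and none higher: the mitochondrial adenylate kinase AK4 (-2.42 ± 0.19), the glucose transporter SLC2A1 (37.9, 36.1 and 36.0 against 93.3, 105 and 116), ANKRD37 (-1.47), PDK1 (-1.22) and P4HA2 (-1.14). At an adjusted p under 0.05, 15 were lower and 8 higher, and the list's median log2 fold change was -0.08. Enzymes of glycolysis went both ways, with PFKL (0.60), PFKM (0.36), GAPDH (0.36) and ALDOA (0.24) higher. HK2 (-0.47), PFKP (-0.37), LDHA (-0.29) and PGK1 (-0.21) were lower. Of 71 oxidative phosphorylation genes 35 were higher and 4 lower at an adjusted p under 0.05, with a median log2 fold change of 0.23, and those lower included the coactivators PPARGC1A (-0.80) and PPARGC1B (-1.03), which drive mitochondrial biogenesis. PPARGC1B was the only call and lost it without replicate 1 of either group (-0.78 and -0.83). Without drug the oxidative phosphorylation list differed about as much, with 39 higher, 3 lower and a median of 0.24. Ribosomal protein genes, whose messages carry an oligopyrimidine start that makes their translation depend on mTORC1, were the most uniform group: 71 of 78 were higher and none lower at an adjusted p under 0.05, none passed the fold of 2, and the median was 0.43. They were also higher without drug (62 of 78, median 0.33), against 1869 of 13040 genes. The counts stayed at 71 higher under median-of-ratios scaling and 72 in the edgeR fit. RPS18 (0.85) and RPS10 (0.82) had the highest values, and both lie in the first 60 Mb of chromosome 6.

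Called genes of the interferon, antigen presentation and cytokine lists were all lower in TFE3 KO, the direction of 556 of the 638 calls over all genes (4.26% lower, 0.629% higher). Of 43 interferon response genes 8 were called lower and none higher, among them DTX3L (23.1, 16.3 and 32.7 against 64.3, 65.5 and 54.8), the exonuclease ISG20 (36.3, 32.3 and 30.0 against 74.8, 70.05 and 65.6), the antiviral synthetase OAS3 (-1.31 ± 0.23) and the RNA sensor IFIH1 (-1.23 ± 0.29). At an adjusted p under 0.05, 16 were lower and 2 higher. Without drug 16 were lower, 6 of them called, and none higher. The median was -0.32 there against -0.41 under Torin. Of 26 antigen presentation genes the immunoproteasome subunit PSMB8 (-1.65 ± 0.23) and HLA-B were called. Without drug 5 members of that list were called lower and none higher. HLA-B, which shares sequence with other class I genes, was 11.2, 12.2 and 9.99 against 21.7, 28.1 and 24.4 (-1.08 ± 0.19), and dropped below the fold limit without TFEB KO Torin replicate 2 (-0.99). Of 23 immune ligands and cytokines 4 were called lower, with IL24 at 2.76, 5.57 and 2.5 against 23.6, 28.3 and 23.8 and the receptor chain IL6ST at 10.8, 8.68 and 15.2 against 27.1, 26.9 and 28.1. Of 56 axon guidance and neural genes 10 were called lower and none higher, and 17 were lower and 10 higher at an adjusted p under 0.05. Without drug 9 were called lower and 1 higher. The called genes ran from SLIT1 (0.424, 1.56 and 0 against 16.6, 15.1 and 16.9) to VGF (29.3, 22.3 and 22.5 against 76.0, 85.6 and 61.3) and the neurofilament NEFL (50.5, 53.7 and 67.0 against 140, 135 and 149). Cancer-testis antigens went both ways, with MAGEC1 higher (30.1, 31.8 and 26.4 against 9.31, 9.89 and 14.7) and SSX1, TEX14 and MAGEA10 lower (MAGEA10 23.5, 21.8 and 17.5 against 66.9, 58.6 and 72.1). Among 13 keratins and epithelial genes KRT81, KRT17 and KRT86 were lower and KRT18 higher (1.01 ± 0.34, limma adjusted p = 0.0236), a call lost without any 1 of 4 of the 6 libraries or under median-of-ratios scaling.

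**Figure D5:**
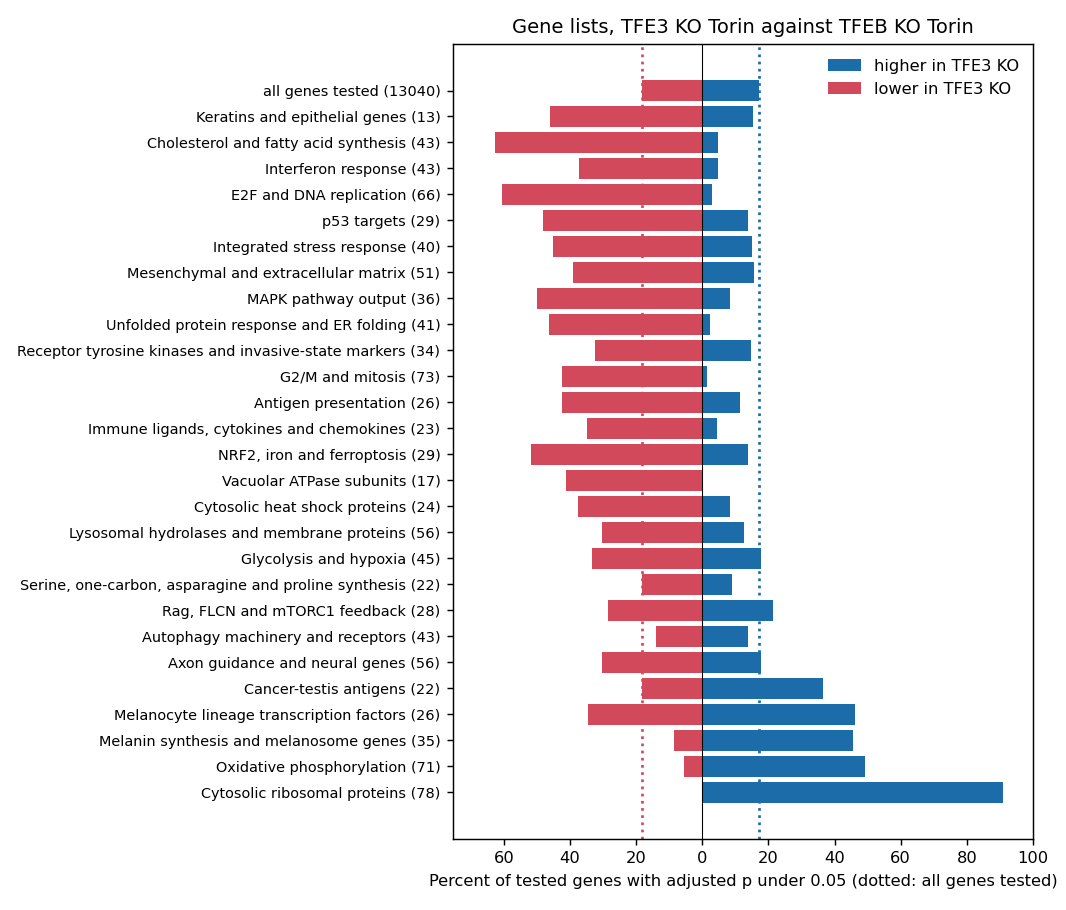
Percent of each list's tested genes (number in brackets) with an adjusted p under 0.05 in TFE3 KO Torin against TFEB KO Torin, higher to the right in blue and lower to the left in red, ordered by the list's median log2 fold change, with dotted lines at the values for all genes (17.1% higher and 18.1% lower). Ribosomal protein genes (71 of 78 higher) are at the bottom, and sterol and replication genes have the longest red bars.

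The called genes were also set beside WT cells in Torin. They had been picked for a difference between the 2 knockouts in these same libraries. Medians on opposite sides of 0 are therefore largely built in and are no separate result. The comparisons that follow share libraries with one another and are given side by side. Against WT Torin, the 556 lower genes had a median log2 fold change of -0.66 in TFE3 KO and 0.77 in TFEB KO, and 138 were called lower in TFE3 KO and 181 higher in TFEB KO. The 82 higher genes had medians of 0.55 and -0.69, with 10 called higher in TFE3 KO and 11 lower in TFEB KO. Over all genes TFE3 KO Torin had 57 higher (0.437%) and 185 lower calls (1.42%) against WT Torin, and TFEB KO Torin 266 higher (2.04%) and 51 lower (0.391%). HMGCS1 had 187 and 171 in WT, between 53.9 to 56.8 in TFE3 KO and 250 to 274 in TFEB KO. DKO Torin lay nearer to TFE3 KO than to TFEB KO for 389 of the 556 lower genes (69.96%) and 60 of the 82 higher genes (73.2%), and for 63.4% of all genes. DKO values of HMGCS1 (71.5, 73.4 and 69.3), GINS1 (18, 22 and 18.5) and RRAGD (101, 97.1 and 102) were near those of TFE3 KO. VGF (86.9, 86.3 and 81.3) and NEFL (155, 143 and 137) in DKO were at or above TFEB KO levels.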

How the data were processed

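RNA of 27 libraries of 501mel cells was profiled by 3′ end sequencing, and 6 of them, TFE3 KO Torin and TFEB KO Torin, make up the main comparison. Per the labels and the study's methods the authors trimmed reads (cutadapt 2.10, FastQC 0.11.9), mapped them to hg38 with STAR 2.7.8a and normalised with edgeR. The counter, annotation, scaling and filter that left 13523 genes are not given in the sources used here. For each symbol the authors deposited a signal, which is its CPM over a scaling factor of the library. In every column 100% of the values were whole multiples of the value of 1 read (tolerance 0.01), so reads were recovered by division for the count tests.

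After removal of genes that did not reach 1 in 3 or more libraries, values were fitted as log2(value + 1) with limma 3.58.1 (eBayes with trend and robust, R 4.3.3) on 25 libraries, with group means. Leaving out the column found under 2 labels gives 25. Tests were 2-sided, with Benjamini-Hochberg adjustment across the genes tested, and calls needed an adjusted p below 0.05 plus a 2-fold change. Chromosome Y genes (12 tested) were set aside from counts, lists and figures. Fold changes on this scale understate the change of low genes. Alternatives were edgeR 4.0.16 and DESeq2 1.42.0 on recovered reads, a pseudocount of 0.1, no filter, a minimum of 5, median-of-ratios scaling, only the compared groups, the duplicated column kept, a replicate block, and each replicate left out.

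The genes named were TFE3, TFEB and MITF, the 12 highest and 12 lowest called genes with non-overlapping libraries and a mean of at least 5, up to 4 such called members of each list, and all called genes that the study's text examines. Other list members are given by log2 fold change, and were chosen after their values were seen. The comparison, its members and the lists were chosen with earlier results of these data known. Symbols were placed in hg38 by GENCODE (12306) or RefSeq (132 by symbol, 810 by synonym), and 275 were not placed. Some called genes are not reported here by name.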

Additional observations from a re-analysis of the deposited data

Results flagged for a closer look

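The difference between the clones changed with Torin in 180 genes (interaction contrast, limma, adjusted p under 0.05 and at least 2-fold, 1.38% of 13040), 90 in each direction. In FAM111B, a replication-associated protease, the change was -1.91: values were 4.03, 3.56 and 1.46 in TFE3 KO and 8.10, 12.3 and 12.6 in TFEB KO under Torin, and 33.6, 41.7 and 43.5 against 28.9, 34.9 and 33.0 without drug. The same contrast was -1.96 for CCNE2. SHISA2 turned from higher without drug (22.1, 17.2 and 16.2 against 5.01, 8.43 and 10.9) to lower under Torin (2.33, 1.78 and 3.33 against 7.24, 7.54 and 7.94), a change of -2.46. ATP1B1, a subunit of the sodium pump, gave -1.74, with 4.03, 1.56 and 3.54 against 28.8, 33.0 and 25 under Torin. Its call was lost with the duplicated column kept (adjusted p = 0.0648).

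At the other end, the genes named here had a difference without drug that was smaller under Torin. That did not hold for all 90 genes at this end. Among them were 13 of the 82 genes called higher under Torin, such as NBEA, which differed little without drug. AHNAK, a large scaffold protein, was 3.89, 4.91 and 2.34 in TFE3 KO and 24.4, 22.1 and 20.2 in TFEB KO without drug, and 48.5, 47.4 and 32.7 against 41.0, 44.3 and 43.6 under Torin, where the libraries overlapped (interaction 2.31). The lens and stress chaperone CRYAB (2.06) was 3.53, 3.99 and 2.96 against 49.9, 52.1 and 46.3 without drug. RORB, a nuclear receptor, gave 1.81 and FBXO2 gave 1.80.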

How the results depend on the processing

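No result reversed under any alternative run. Genes called higher numbered 82 and became 140 in DESeq2, 151 in edgeR and 149 at a pseudocount of 0.1. Without drug the total of 518 became 780 in edgeR, and the 56 higher genes became 95 in DESeq2, 99 in edgeR and 123 at a pseudocount of 0.1. With the duplicated column kept, the interaction calls fell from 180 to 95 (47 higher and 48 lower). The cause was not tested. The other alternatives kept these counts within 1.5 times. Leaving out 1 replicate in turn gave 663 to 697 calls under Torin (101 to 112 higher, 552 to 587 lower), 529 to 590 without drug (53 to 84 higher, 472 to 506 lower) and 152 to 206 in the interaction (70 to 107 higher, 81 to 99 lower). Calls were kept under every alternative for 41 of the 82 higher and 395 of the 556 lower genes. Named genes that lost a call under an alternative are given with their values above. Replicate numbers did not pair the samples (correlations of same-numbered deviations 0.19, -0.09 and -0.05 under Torin). Differently numbered libraries gave 0.17 (TFE3 KO 2 with TFEB KO 3) and 0.16 (TFE3 KO 3 with TFEB KO 2), and the remaining pairs were negative. A block by these pairs was not tested. With a block by replicate number the counts were 638 (82 and 556) under Torin, 518 (56 and 462) without drug and 176 (87 and 89) in the interaction. Depth limits genes near the floor, TFEB among them.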
